A study of Mus musculus with 16 samples.

Results

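The 7 genes described here encode the MHC class II antigen presentation pathway: the alpha and beta chains H2-Aa, H2-Ab1 and H2-Eb1, the invariant chain Cd74, the peptide editor subunits H2-DMa and H2-DMb1, and the transcriptional coactivator Ciita. They were chosen by name for their role in class II presentation, with earlier results of these data known, and all 7 were among the 29535 genes of the deposited expression table. All 7 also passed the filter on low values, as did 16895 genes in all. The data were poly-A selected RNA sequencing libraries of mouse prostate. Each library is described by a normalized log2 expression value per gene, so 1 unit is a doubling.

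Mice were hybrids of 129/SvImJ and C57Bl/6J, were 12 months old, and were wild type (+/+) or homozygous mutant (-/-) for a single gene. They received vehicle or finasteride, a drug that inhibits the 5-alpha-reductases, the enzymes that convert testosterone to dihydrotestosterone. The vehicle groups held 3 wild-type and 3 mutant libraries, and the finasteride groups held 5 of each genotype. Dose, duration and the design of the mutant allele are not given in the sources used here. Whether each library is a separate animal is not stated in the labels, and p-values therefore reflect only how these libraries vary.

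Class II molecules present peptides from endocytosed proteins to CD4+ T cells. An alpha and a beta chain assemble with the invariant chain Cd74, which occupies the peptide groove and carries the complex to the endosome. There, cathepsins trim Cd74 to a short fragment, which H2-DM, a dimer of H2-DMa and H2-DMb1, exchanges for an antigenic peptide. Ciita does not bind DNA itself: it is recruited by the RFX factors, CREB and NF-Y, which sit on the X and Y boxes of class II promoters. Dendritic cells, macrophages and B cells make class II constitutively, whereas epithelial cells such as those of the prostate acquire it mainly after interferon gamma. In mice of the H2-b haplotype, such as C57BL/6, the alpha chain that pairs with H2-Eb1 is not made. Its locus was listed in the table as the pseudogene H2-Ea-ps, with log2 expression of 0.48 to 2.79 over the 16 libraries, too low to be tested.

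The X and Y boxes are the DNA through which Ciita acts on the other members, so the stretch around the Y box is shown for 3 members and, beside them, for 3 paralogs of the same locus. The RefSeq promoter table (build GRCm38.p6, from 250 bases before to 50 after the start) held H2-Aa, H2-Eb1, H2-DMb1 and H2-DMa among the members. H2-Ab1, Cd74 and Ciita were not matched in it. Capitals mark the Y box, TGATTGG, and an X core, AGNAACNNATG, searched on both strands. The X core is the consensus of 11 bases at that place in H2-Eb1, H2-DMb1, H2-Ob and H2-Eb2, with N where they differ, and was picked after the sequences were seen. The motifs do not overlap. The stretches are written 5′ to 3′ on the coding strand; they lie at chr17:34287862-34287918 (minus strand) for H2-Aa and, on the plus strand, at chr17:34305761-34305817 for H2-Eb1, chr17:34153083-34153139 for H2-DMb1, chr17:34145112-34145168 for H2-DMb2, chr17:34238801-34238857 for H2-Ob and chr17:34325528-34325584 for H2-Eb2.
H2-Aa: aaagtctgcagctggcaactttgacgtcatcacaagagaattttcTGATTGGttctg
H2-Eb1: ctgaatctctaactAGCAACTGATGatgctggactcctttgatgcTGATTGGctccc
H2-DMb1: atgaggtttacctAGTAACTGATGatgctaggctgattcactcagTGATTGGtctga
H2-DMb2: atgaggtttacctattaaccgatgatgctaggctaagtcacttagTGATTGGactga
H2-Ob: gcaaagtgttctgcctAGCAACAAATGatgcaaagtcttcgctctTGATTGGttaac
H2-Eb2: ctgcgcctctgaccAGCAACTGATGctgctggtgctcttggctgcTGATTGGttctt

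The Y box began at position -50 from the start in H2-Aa, -61 in H2-Eb1 and -63 in H2-DMb1. It was found in 3 of the 4 members with a promoter in the table and in 7 of 8 class II family genes, against 7.82% of all 32851 promoters. The X core was found in none of the other family promoters beyond the 4 genes that define it, 2 of them members, and in 0.895% of all promoters. Where both motifs were present, 18 to 21 bases lay between them. Neither motif was found in the promoter windows of H2-DMa, which says only that these letters were not there. H2-DMb1 and its neighbour H2-DMb2 are near copies: 179 of the 1305 stretches of 100 bases in the H2-DMb1 transcript, 13.7%, occurred unchanged in H2-DMb2. How the counting assigned such reads is not given in the sources used here, so the levels of H2-DMb1 are uncertain. None of the other 6 members shared such a stretch with Cd74, Ciita or another gene named H2. Transcripts of all other genes were not searched.

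The libraries differed in ways that touch the results. On the linear scale, the log2 of the summed expression was between 24.07 and 24.16 for mutant finasteride libraries and between 24.31 and 24.55 for the other 11; read depth is unknown. In addition, 5 libraries, scattered over the 4 groups, lay close to a weighted mixture of 2 other libraries of their own group: their residuals were 0.0764 to 0.0968 on the log2 scale, against 0.121 to 0.402 for the remaining 11. They were WT vehicle 3, WT finasteride 4, mutant vehicle 3 and mutant finasteride 3 and 4, and the main results are therefore also given for the 11 libraries without them. Prostate identity was clear in the vehicle groups from Pbsn, the secretory protein probasin, at a log2 expression of 18.23 ± 0.13 in wild type (SD, n = 3) and 15.69 ± 0.04 in the mutant (SD, n = 3). Pbsn stood at 18.01 ± 0.32 in wild type on finasteride and 11.08 ± 0.44 in the mutant on finasteride (SD, n = 5 each).

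The classical chains and the invariant chain were expressed at a similar level in 3 of the groups and at a higher level in the mutant on finasteride. For H2-Aa, the alpha chain of the I-A molecule, log2 expression was 10.10, 10.30 and 10.13 in wild type on vehicle and 10.04, 10.25 and 10.20 in the mutant on vehicle. It was 10.39, 9.89, 9.65, 9.49 and 9.41 in wild type on finasteride and 11.29, 11.72, 11.42, 11.40 and 11.57 in the mutant on finasteride. The 5 mutant finasteride libraries lay above all others, the vehicle groups overlapped, and 4 of the 5 wild-type finasteride libraries lay below both vehicle groups.

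H2-Ab1, the beta chain that pairs with H2-Aa, read 9.66, 9.90 and 9.59 in wild type and 9.70, 10.17 and 9.91 in the mutant, both on vehicle, as log2 expression. On finasteride it read 10.08, 9.42, 9.45, 9.11 and 8.99 in wild type and 10.88, 11.59, 10.93, 11.08 and 10.99 in the mutant. The high mutant library among these, mutant finasteride 2, was also the highest of its group in each of the other 6 members. H2-Eb1, the beta chain of the I-E molecule, had a log2 expression of 9.92, 9.99 and 9.93 in wild type on vehicle and 9.87, 10.15 and 10.08 in the mutant on vehicle. With finasteride the values were 10.26, 9.68, 9.51, 9.39 and 9.11 in wild type and 11.10, 11.68, 11.21, 11.29 and 11.37 in the mutant. For both beta chains the wild-type finasteride libraries spanned the range of the wild-type vehicle group, because 1 of them, WT finasteride 1, lay above it.

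Cd74, the invariant chain, had log2 expression of 11.09, 11.30 and 11.11 in wild type on vehicle and 11.001, 11.47 and 11.14 in the mutant on vehicle. It had 11.50, 10.89, 10.73, 10.52 and 10.26 in wild type on finasteride and 12.16, 12.67, 12.33, 12.38 and 12.38 in the mutant on finasteride. As for the chains, the mutant on finasteride was highest and did not overlap the other groups, while the vehicle groups overlapped.

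For the peptide editor, the wild-type groups did not overlap. H2-DMa had log2 expression of 6.99, 7.41 and 7.33 in wild type and 6.94, 7.43 and 7.28 in the mutant on vehicle. It had 6.94, 6.83, 6.77, 6.54 and 6.44 in wild type and 7.83, 8.25, 7.96, 8.01 and 8.23 in the mutant on finasteride. All 5 wild-type finasteride libraries lay below the wild-type vehicle libraries, and all 5 mutant finasteride libraries lay above every other. H2-DMb1 had 7.06, 6.94 and 7.14 in wild type on vehicle and 6.48, 6.73 and 6.53 in the mutant on vehicle. It had 6.37, 6.53, 6.27, 5.61 and 5.42 in wild type on finasteride and 7.60, 7.98, 7.55, 7.76 and 7.72 in the mutant on finasteride. H2-DMb1 was the only member whose vehicle groups did not overlap, with the mutant lower.

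Ciita, the coactivator, had the narrowest range of the 7 members over the 16 libraries, at 1.71 log2. Its log2 expression was 5.83, 6.16 and 6.32 in wild type on vehicle, and 6.27, 7.03 and 6.48 in the mutant on vehicle. It was 6.08, 5.81, 5.91, 6.05 and 5.98 in wild type on finasteride and 6.94, 7.52, 6.96, 7.21 and 7.09 in the mutant on finasteride. Here the mean of the mutant vehicle group lay between those of the wild-type groups and of the mutant finasteride group. That group overlapped wild type on vehicle, and through 1 library, mutant vehicle 2 at 7.03, also the mutant on finasteride.

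**Figure D1:**
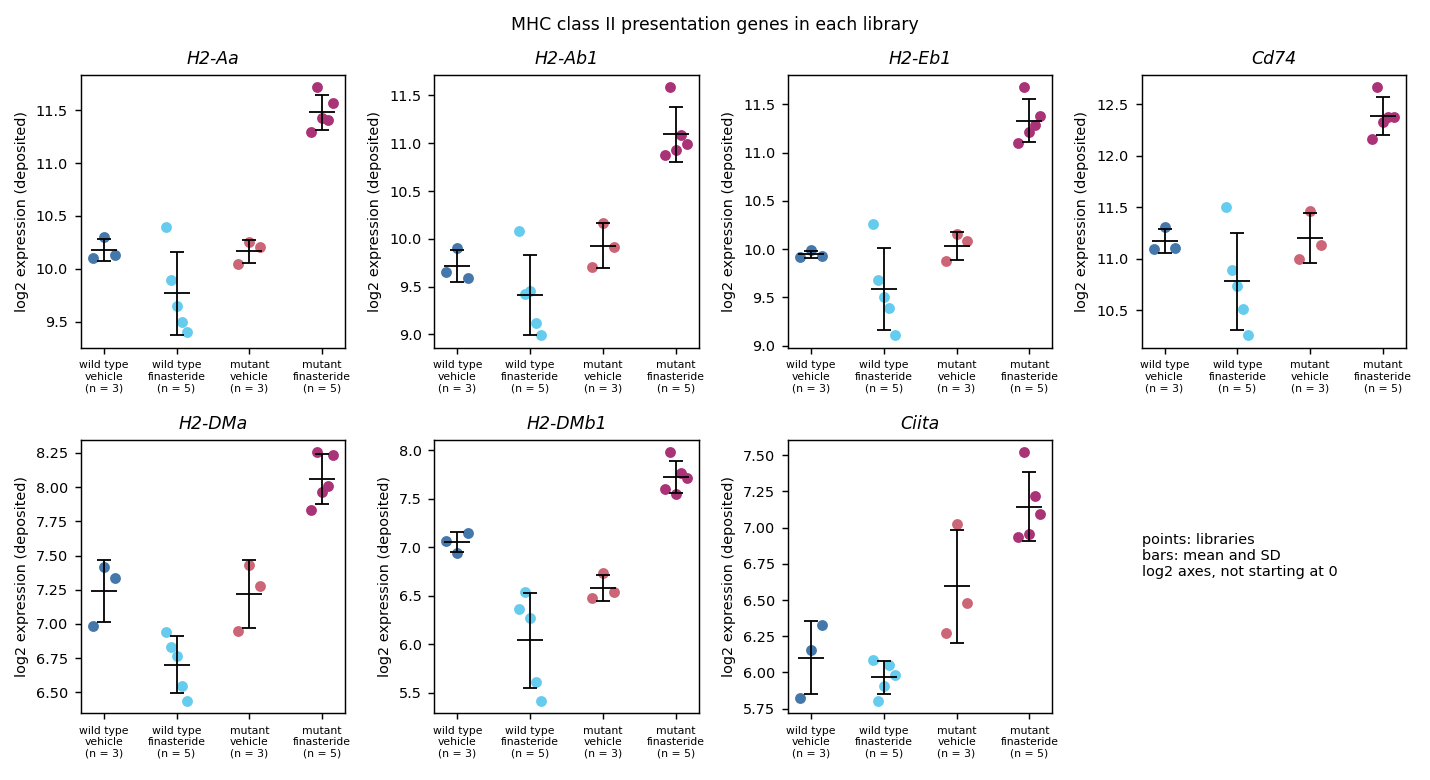
Log2 expression (vertical axes, log scale not starting at 0) of the 7 class II presentation genes in each of the 16 libraries, by genotype and treatment; points are libraries, and bars show the mean and SD. The 5 mutant finasteride libraries lie above every other library for 6 of the genes, while for Ciita they overlap the mutant vehicle group.

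Between genes, levels were set side by side per length, which assumes deposited values that grow with transcript length. Whether they do is not given in the sources used here. On a linear scale and divided by the length of the merged exons in kilobases, mean expression in wild type on vehicle was 1629 for Cd74, 1030 for H2-Aa, 696.5 for H2-Ab1 and 591.1 for H2-Eb1. On the same per-kilobase scale it was 94.5 for H2-DMb1, 57.3 for H2-DMa and 8.44 for Ciita. In the mutant on finasteride it was 3797 for Cd74, 2548 for H2-Aa and 17.4 for Ciita. The order of the 7 genes was the same in all 4 groups, with Cd74 highest and Ciita lowest. Length was that of all annotated exons together, so the distance between neighbours in that order depends on which isoforms are used. Without the division, H2-Eb1 (986.5) stood above H2-Ab1 (844.2) and H2-DMa (152.8) above H2-DMb1 (132.6) in wild type on vehicle.

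On vehicle, the genotype made no detectable difference to the members. With limma, fitted across all genes and with p-values adjusted by Benjamini and Hochberg over the 16895 genes, 0 of the 7 were higher and 0 were lower in the mutant (1 and 0 at an unadjusted p under 0.05); of all genes, 14.3% were higher and 17.5% were lower. The members' median difference in log2 expression was 0.03, against -0.0019 for all genes tested. The estimates for Cd74 (0.03 ± 0.23), H2-Aa (-0.01 ± 0.19) and H2-Eb1 (0.09 ± 0.21; log2 difference ± SE throughout) were near 0, and these standard errors leave room for moderate differences. Ciita was 0.49 ± 0.20 higher with an adjusted p of 0.0714, and H2-DMb1 differed by -0.47 ± 0.24 with an adjusted p of 0.148. H2-DMb1 was 1 of the 27.9% of genes that were lower in the mutant without overlap of the vehicle groups. Ciita passed the threshold when libraries were scaled to equal medians (0.57, adjusted p = 0.0482), after quantile normalization (0.79, adjusted p = 0.019), without mutant vehicle 1 (0.65, adjusted p = 0.0352) and without mutant finasteride 2 (adjusted p = 0.0455). H2-DMb1 passed when the fit held the vehicle groups alone (adjusted p = 0.0167).

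Some markers of antigen presenting cells and T cells differed between the vehicle groups. Of 14 macrophage genes, 8 were lower and 1 was higher in the mutant, among them C1qa, a complement subunit made by tissue macrophages, at -0.75 ± 0.19 (adjusted p = 0.0075), and Mrc1, the mannose receptor, at -0.87 ± 0.16 (adjusted p = 0.00089). The exception was Mertk, a receptor for the uptake of dead cells, at 1.05 ± 0.14 (adjusted p = 5.9e-05). Of 10 T cell genes, 4 were higher, including Lck, the T cell receptor kinase, at 0.81 ± 0.21 (adjusted p = 0.0083). Of 13 dendritic cell genes 1 was higher and 3 were lower, and of 7 B cell genes 0 were higher and 1 was lower. Among all genes 14.3% were higher and 17.5% lower. Over the 11 libraries, 0 macrophage genes were lower in the limma fit (6 at an unadjusted p under 0.05), against 5.23% of all genes. Likewise 0 T cell genes were higher (2 unadjusted), against 3.83%. The adjusted p was then 0.133 for C1qa, 0.052 for Mrc1 and 0.0513 for Lck. The part of these cells in the members' levels was not tested. In bulk tissue, fewer cells of a type and less RNA per cell cannot be told apart, here and in every comparison that follows.

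In wild type, finasteride was accompanied by lower H2-DM and by no called change in the other members. H2-DMb1 fell by 1.01 ± 0.21 on the log2 scale (adjusted p = 0.00205) and H2-DMa fell by 0.54 ± 0.15 (adjusted p = 0.0113). Thus 2 of 7 members were lower, a share near the 21.9% of all genes called lower, and 0 were higher, against 17.9%. The same 2 members were lower without overlap of the groups, as were 18.9% of all genes. H2-Aa differed by -0.41 ± 0.17 (adjusted p = 0.0646), H2-Eb1 by -0.36 ± 0.19, Cd74 by -0.39 ± 0.20, H2-Ab1 by -0.30 ± 0.21 and Ciita by -0.14 ± 0.18. The members' median was -0.39, against -0.03 for all genes.

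A single library carried much of the uncertainty in that comparison. Without WT finasteride 1, the library that read highest for 6 of the 7 members within its group, 6 members were lower, with H2-Aa at -0.57 (adjusted p = 0.00214), Cd74 at -0.57 (adjusted p = 0.00888), H2-Eb1 at -0.53 (adjusted p = 0.00831) and H2-Ab1 at -0.47 (adjusted p = 0.0404). Without WT vehicle 2 or without WT vehicle 3, H2-DMa lost its call (adjusted p = 0.0551 and 0.0519), leaving 1 member lower. After quantile normalization the 2 members called were H2-DMb1 and H2-Aa (-0.47, adjusted p = 0.0331), while H2-DMa stood at -0.23 (adjusted p = 0.27). Over the 11 libraries, 0 of 7 members were lower in the limma fit (1 at an unadjusted p under 0.05), against 5.00% of all genes: H2-DMb1 differed by -0.86 (adjusted p = 0.0782) and H2-DMa by -0.46 (adjusted p = 0.186).

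Some genes around the members also differed in the wild type. Of 10 genes of endosomal processing, 7 were lower and 0 higher on finasteride, among them Ctsb, which encodes the protease cathepsin B, at -0.59 ± 0.11 (adjusted p = 0.00084), and Sppl2a, the intramembrane protease that clears the last fragment of Cd74, at -1.06 ± 0.27 (adjusted p = 0.0068). Of 6 genes of a costimulation list, 4 were lower. Costimulation is the second signal that a T cell needs, and Icosl, the ligand of the T cell receptor Icos, stood at -1.27 ± 0.21 (adjusted p = 0.00049). The list also holds Cd274, an inhibitory ligand, which was among the lower genes at -0.54 ± 0.15 in the limma fit (adjusted p = 0.0117). The leukocyte genes were lower in 4 of 6 cases, with Ptprc, the leukocyte phosphatase CD45, at -0.80 ± 0.15 (adjusted p = 0.001). Of 14 macrophage genes, 7 were lower and 1 higher, while 3 of 7 B cell and 3 of 10 T cell genes were lower. Of 13 dendritic cell genes, 1 was lower, 1 was higher and 11 did not pass the threshold. Among all genes 21.9% were lower and 17.9% higher, and the T cell count was near that share of lower genes. Over the 11 libraries 1 processing gene, 1 costimulation gene, 3 macrophage genes, and 1 B cell gene were lower, against 5.00% of all genes. There, 0 leukocyte, 0 T cell and 0 dendritic cell genes were lower in the limma fit (3, 2 and 1 at an unadjusted p under 0.05). The part of leukocyte content in the H2-DM result was not tested.

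In the mutant, finasteride was accompanied by higher levels of the members. All 7 members rose, against 26.3% higher and 22.3% lower among all genes, and their median difference was 1.16 on the log2 scale against -0.0022 for all genes. H2-Aa rose by 1.32 ± 0.17 (2.49-fold, adjusted p = 1.99e-05), H2-Eb1 by 1.29 ± 0.19 (2.45-fold, adjusted p = 5.8e-05) and Cd74 by 1.18 ± 0.20 (2.27-fold, adjusted p = 0.00026). H2-Ab1 rose by 1.16 ± 0.21, H2-DMb1 by 1.14 ± 0.21 and H2-DMa by 0.84 ± 0.15, with adjusted p between 0.00035 and 0.00048. Ciita rose by 0.55 ± 0.18 (1.47-fold, adjusted p = 0.018). All members but Ciita were higher without overlap of the groups, as were 25.3% of all genes.

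The call for Ciita was the weak one. Over the 11 libraries 6 of 7 members were higher, against 11.3% of all genes, and Ciita stood at 0.53 with an adjusted p of 0.166. It also lost its call without mutant vehicle 1 (0.39, adjusted p = 0.117), without mutant vehicle 3 (0.50, adjusted p = 0.0738), with equal medians (0.42, adjusted p = 0.0734) and after quantile normalization (0.11, adjusted p = 0.695). The other 6 members kept an adjusted p of at most 0.0228 under each of the 26 alternatives fitted.

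Between genotypes on finasteride, all 7 members were higher in the mutant, against 33.9% higher and 29.7% lower among all genes. This comparison and the preceding one share the mutant finasteride libraries, so they are not independent. H2-Eb1 was higher by 1.74 ± 0.16 (3.34-fold, adjusted p = 2.7e-07), H2-Aa by 1.72 ± 0.15 (3.28-fold, adjusted p = 1.1e-07), H2-Ab1 by 1.68 ± 0.18 and Cd74 by 1.60 ± 0.18. H2-DMb1 was higher by 1.68 ± 0.18, H2-DMa by 1.35 ± 0.13 and Ciita by 1.18 ± 0.15 (2.26-fold, adjusted p = 8.5e-06). All 7 were higher without overlap, as were 21.8% of all genes, and all 7 were higher over the 11 libraries, as were 22.4%. Their median difference was 1.68, against 0.02 for all genes.

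The interaction tested directly whether the response to finasteride differed between genotypes. All 7 members had a higher response in the mutant than in the wild type, against 30.2% of all genes higher and 26.6% lower. The difference between the responses was largest for H2-DMb1, at 2.15 ± 0.30 (adjusted p = 3.4e-05), and was 1.73 ± 0.24 for H2-Aa (adjusted p = 3.2e-05), 1.65 ± 0.27 for H2-Eb1, 1.57 ± 0.29 for Cd74, 1.47 ± 0.30 for H2-Ab1 and 1.38 ± 0.21 for H2-DMa. It was smallest for Ciita, at 0.69 ± 0.25 (adjusted p = 0.0291). Over the 11 libraries 6 of 7 were higher, against 17.4% of all genes, with Ciita at 0.58 (adjusted p = 0.236). The Ciita interaction turned to -0.15 after quantile normalization (adjusted p = 0.678), and was 0.48 with equal medians (adjusted p = 0.128). It also lost its call without WT vehicle 2, WT vehicle 3, mutant vehicle 1 or mutant vehicle 3 (0.53 to 0.66, adjusted p 0.0577 to 0.0965).

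**Figure D2:**
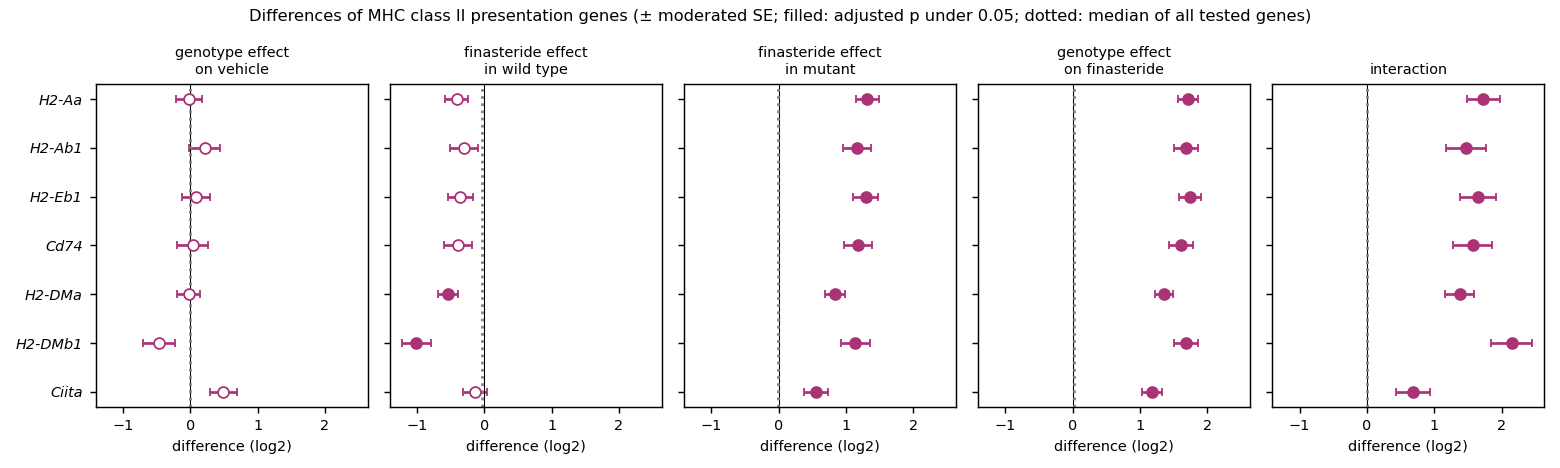
Differences in log2 expression (horizontal axes) of the 7 genes in the 5 comparisons, with moderated SE; filled points have an adjusted p under 0.05 and the dotted line is the median of all tested genes. On vehicle no point is filled, in wild type on finasteride only H2-DMa and H2-DMb1 are, and in the other 3 panels all 7 are, with Ciita at the lowest value.

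Other scalings of the libraries shifted the background. With equal medians, the median of all genes dropped by 0.14 in the finasteride effect in the mutant, dropped by 0.13 in the genotype effect on finasteride and dropped by 0.21 in the interaction. It increased by 0.08 between genotypes on vehicle and by 0.07 between treatments in wild type. The share of higher genes among all calls went from 54.1% to 39.4% in the finasteride effect in the mutant, from 53.3% to 42.6% in the genotype effect on finasteride and from 53.2% to 40.3% in the interaction. It went from 44.9% to 55.5% on vehicle, and to 57.9% from 45.0% in wild type on finasteride after quantile normalization. For the classical chains, Cd74 and H2-DM these shifts of the median were smaller than the differences of 0.84 to 2.15 in the 3 comparisons that hold the mutant on finasteride. The H2-DM genes themselves shifted more. Over all alternatives fitted, the finasteride effect in the mutant was as low as 0.57 for H2-DMa and 0.79 for H2-DMb1. Their interaction was as low as 0.80 and 1.43. Both genes kept their calls in these 2 comparisons.

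The members fell into a tight group and a loose one. Over the 16 libraries, the profile of each gene, centred on its own mean, was set against the mean profile of H2-Aa, H2-Ab1, H2-Eb1 and Cd74, whose SD was 0.742 log2. The root mean square difference was 0.047 for H2-Eb1, 0.058 for Cd74, 0.065 for H2-Aa and 0.078 for H2-Ab1, which are part of that mean. It was 0.247 for H2-DMa, 0.308 for H2-DMb1 and 0.358 for Ciita. These were also the members with the lowest log2 expression, and the part of noise at low levels was not tested. The log2 ratio of H2-Aa to H2-Eb1 had an SD of only 0.072 over the 16 libraries, while that of H2-Aa to Ciita had an SD of 0.393. Between groups, the mean log2 ratio of H2-Aa to Ciita ran from 3.57 to 4.34, whereas that of H2-Aa to H2-Eb1 ran from 0.13 to 0.23.

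Outside the members, the genes nearest to the profile of the chains and Cd74, among 11996 genes with a mean of at least 50, were Cyba at a root mean square difference of 0.163, Fmnl1 at 0.164, Hcls1 at 0.165, Cyth4 at 0.187 and Mpeg1 at 0.191. They were followed by Il10ra at 0.191, Akna at 0.199, Hmha1 at 0.204, Pld4 at 0.206 and Nckap1l at 0.215. All 10 lay closer to that profile than H2-DMa, H2-DMb1 and Ciita did, but they were picked as the nearest of many genes and the members were not. Cyba is a subunit of the phagocyte oxidase, Hcls1 an actin regulator of blood cells, Mpeg1 perforin-2 of macrophages, and Il10ra a receptor chain for interleukin 10. The profile of Ciita had other neighbours among 12002 genes. They were Grn, the growth factor progranulin, at 0.168, Tapbp, the tapasin that loads class I molecules, at 0.202, and Bsg at 0.205. H2-K2 at 0.203 and H2-D1 at 0.206, of the class I family, were also among the nearest.

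Other class II genes of the same locus also rose in the mutant on finasteride. H2-Ob, the beta chain of H2-DO, which inhibits H2-DM mainly in B cells, had log2 expression of 3.74 to 4.58 in the mutant on vehicle and 6.20 to 6.72 in the mutant on finasteride. It rose by 2.17 ± 0.24 (adjusted p = 5.4e-06). H2-Oa, its alpha chain, rose by 2.15 ± 0.59 (adjusted p = 0.0078; 0.0587 over the 11 libraries), and H2-DMb2, a second beta chain of H2-DM that shares sequence with H2-DMb1, by 1.92 ± 0.31 (adjusted p = 0.00014). All 3 of these paralogs tested were higher in the mutant on finasteride against either control, and their interaction was 3.15 ± 0.84 for H2-Oa, 3.01 ± 0.34 for H2-Ob and 2.60 ± 0.44 for H2-DMb2. H2-Oa passed the filter, a linear mean of at least 10, only through the mutant on finasteride, where its linear mean was 25.2. It was 9.95 in wild type on vehicle, 6.46 in wild type on finasteride and 6.29 in the mutant on vehicle. Its place among the tested genes therefore depends on its rise. In wild type, H2-Ob differed by -0.84 ± 0.24 (adjusted p = 0.013). H2-Eb2 was too low to be tested, at 2.01 to 2.72 in the mutant on vehicle and 3.78 to 4.97 in the mutant on finasteride.

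Of 10 genes of endosomal processing, 5 rose and 0 fell with finasteride in the mutant, against 26.3% higher and 22.3% lower among all genes. Their median was 0.65 against -0.0022 for all genes, and the 11 libraries also gave 5. Ctss, the cathepsin that cleaves Cd74 in antigen presenting cells, rose by 1.72 ± 0.19 (adjusted p = 4.4e-06). Ctsh, another cathepsin, rose by 1.34 ± 0.15, Lgmn, the asparagine endopeptidase, by 1.28 ± 0.15, and Ctsb by 0.81 ± 0.11. Between genotypes on finasteride, 8 of the 10 were higher and 0 lower, and 7 had a higher response in the mutant by the interaction.

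The DNA-binding partners of Ciita did not rise with the members. Of 7 genes for RFX, NF-Y and CREB, 0 rose and 2 fell with finasteride in the mutant, against 26.3% higher and 22.3% lower among all genes. The 2 were Creb1, which fell by 0.35 ± 0.09 (adjusted p = 0.0062), and Rfxap, a subunit of RFX, by 0.31 ± 0.10 (adjusted p = 0.016). Neither kept its call over the 11 libraries (adjusted p = 0.095 and 0.29). Their median was -0.15. In wild type, 2 of the 7 were higher on finasteride, Nfya, a subunit of NF-Y, by 0.66 ± 0.09 (adjusted p = 0.00015) and Rfxap by 0.36 ± 0.10 (adjusted p = 0.0105). Between genotypes on finasteride, 2 were higher and 4 lower, with Nfya at -0.67 ± 0.08 and Nfyc at 0.38 ± 0.05.

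Some genes of the interferon gamma pathway, which induces Ciita, changed, in numbers near the shares over all genes. Of 9 genes tested, 3 rose and 1 fell with finasteride in the mutant, against 26.3% higher and 22.3% lower among all genes. Those named are a subset. Socs1, a feedback inhibitor, rose by 0.70 ± 0.15 (adjusted p = 0.0013) and Jak1, a receptor kinase, by 0.39 ± 0.10 (adjusted p = 0.0036). Ifngr1, the receptor's ligand-binding chain, fell by 0.31 ± 0.08 (adjusted p = 0.007; 0.0818 over the 11 libraries). Over the 11 libraries Socs1 alone remained called among the higher genes. Ifng itself was too low to be tested, at 2.99 to 3.29 in the mutant on finasteride and 1.94 to 2.99 in the mutant on vehicle.

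Costimulation genes and 2 of 3 partners of Cd74 rose with the members. All 6 genes tested of the costimulation list rose with finasteride in the mutant (5 over the 11 libraries). Icosl rose by 1.40 ± 0.21 (adjusted p = 9.3e-05), Cd40, the receptor of T cell help, by 1.43 ± 0.29 and Cd80, a ligand of Cd28, by 1.41 ± 0.30. Cd83, a marker of mature dendritic cells, rose by 1.30 ± 0.26. The inhibitory ligand Cd274, also on that list, rose by 0.49 ± 0.15 in the limma fit (adjusted p = 0.0159, and 0.0903 over the 11 libraries). For some of these genes the mutant finasteride libraries overlapped those of wild type on vehicle. The ranges were 4.001 to 4.79 and 3.74 to 4.23 for Cd80, 4.26 to 5.90 and 4.15 to 4.55 for Cd40, and 6.41 to 6.77 and 6.21 to 6.63 for Cd274. The rest of the costimulation genes tested did not overlap in this way. Cd44, a co-receptor of Cd74, rose by 2.01 ± 0.24 (adjusted p = 1.0e-05) and Cxcr4, a chemokine receptor that binds Cd74, by 1.76 ± 0.23. Mif, the ligand of Cd74, differed by 0.05 ± 0.22 (adjusted p = 0.86). Cd44 was also lower in the mutant on vehicle than in wild type, by -1.84 ± 0.27, and in wild type on finasteride than on vehicle, by -2.02 ± 0.24, so its mutant finasteride level of 9.84 ± 0.28 was close to the wild-type vehicle level of 9.67 ± 0.26 (SD, n = 5 and n = 3).

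**Figure D3:**
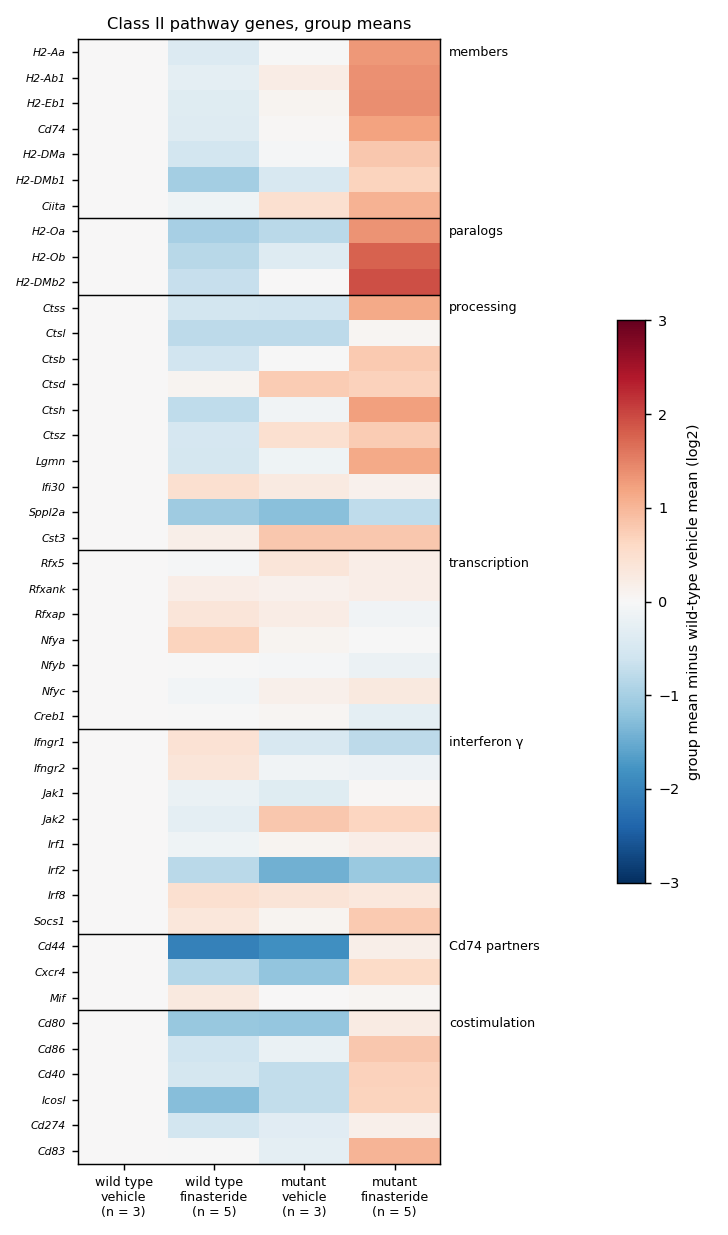
Group mean log2 expression minus the wild-type vehicle mean (colour, from -3 to 3 log2) for the members and tested genes of the class II pathway, 1 row per gene, grouped by role. The members, their paralogs and most proteases are red in the mutant on finasteride and pale or blue in wild type on finasteride, while the RFX, NF-Y and CREB genes are pale in the mutant on finasteride.

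Markers of the cells that make class II constitutively rose in the same libraries. All 7 B cell genes tested rose with finasteride in the mutant, also over the 11 libraries, with a median of 2.97. At least Cr2 and Fcer2a of that list passed the filter only through the mutant on finasteride. Their linear means were below 10 in each other group. Cd79b, a chain of the B cell receptor complex, rose by 3.31 ± 0.26 (adjusted p = 2.6e-07), Cd79a, its partner, by 2.97 ± 0.26 and Ms4a1, the surface protein CD20, by 2.81 ± 0.20. Cd79a had log2 expression of 3.25 to 4.03 in the mutant on vehicle, 1.996 to 3.02 in wild type on finasteride and 6.28 to 6.98 in the mutant on finasteride. Summed on the linear scale, the B cell list ran from 588.2 to 863.9 in the mutant on finasteride, 61.4 to 88.1 in the mutant on vehicle, 58.1 to 79.3 in wild type on finasteride and 102.8 to 121.3 in wild type on vehicle.

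Macrophage genes rose in 13 of 14 cases and fell in 1 (12 and 1 over the 11 libraries, where 9.06% of all genes were lower). C1qc, a complement subunit, rose by 1.39 ± 0.16 (adjusted p = 6.2e-06) and C1qa by 1.41 ± 0.17. Mertk fell by 1.62 ± 0.13 (adjusted p = 2.1e-07). The list summed to 7210 to 10239 in the mutant on finasteride, 5751 to 6275 in the mutant on vehicle, 5045 to 6314 in wild type on finasteride and 6061 to 6374 in wild type on vehicle.

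Dendritic cell genes rose in 9 of 13 cases (4 over the 11 libraries), with Irf4, a transcription factor, at 2.34 ± 0.36 (adjusted p = 9.7e-05) and Ccr7, the receptor for migration to lymph nodes, at 1.84 ± 0.38. Their sum was 883.7 to 1111 in the mutant on finasteride and 549.7 to 582.0 in the mutant on vehicle, with 492.2 to 680.9 in wild type on finasteride and 563.9 to 702.7 in wild type on vehicle. All 10 T cell genes rose (8 over the 11 libraries), with Cd8a at 1.86 ± 0.28 and Cd4 at 1.73 ± 0.34. They summed to 713.8 to 1187 in the mutant on finasteride, 329.1 to 370.4 in the mutant on vehicle, 141.3 to 216.6 in wild type on finasteride and 206.1 to 258.4 in wild type on vehicle. No marker of these lists was listed at 0 in any library; Pax5, a B cell transcription factor, was too low to be tested.

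Other tissue markers also moved in that comparison, where 26.3% of all genes were higher and 22.3% lower. Of 5 endothelial genes 4 rose, with Pecam1 at 0.94 ± 0.10 (adjusted p = 3.9e-06), and the list summed to 1659 to 2301 in the mutant on finasteride and 1132 to 1192 in the mutant on vehicle. Of 7 luminal epithelial genes 2 rose and 2 fell: Cdh1, which encodes E-cadherin, rose by 0.52 ± 0.07 and Krt8, a keratin, by 0.51 ± 0.12, while Pbsn fell by 4.61 ± 0.22 and Hoxb13, a prostate transcription factor, by 0.56 ± 0.14. The part of any of these cell types in the members' levels was not tested.

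The members can be read relative to leukocyte genes. Of 6 pan-leukocyte genes 5 rose with finasteride in the mutant, also over the 11 libraries, among them Laptm5, a lysosomal protein of blood cells, by 1.51 ± 0.16 and Ptprc by 1.27 ± 0.15. The sixth, Cd52, differed by 0.11 ± 0.47 (adjusted p = 0.863). Cd52 made up most of the sum of the list and is also known from epithelium of the male reproductive tract, so the list was reduced to the other 5, a choice made after the values were seen. These 5 summed on the linear scale to 1015 to 1048 in wild type on vehicle, 509.2 to 801.7 in wild type on finasteride, 842.0 to 885.6 in the mutant on vehicle and 1954 to 3414 in the mutant on finasteride.

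Relative to those 5 genes, the mean of the members was lower in the mutant on finasteride than in the mutant on vehicle. Each of the 7 members had a lower mean too, by differing amounts, though the libraries of these groups overlapped for H2-Aa, H2-Ab1 and H2-Eb1. The mean log2 expression of the 7 members minus that of the 5 leukocyte genes was 1.11 ± 0.11 in the mutant on finasteride (SD, n = 5) and 1.55 ± 0.19 in the mutant on vehicle (SD, n = 3). It was 1.52 ± 0.14 in wild type on finasteride (SD, n = 5) and 1.22 ± 0.12 in wild type on vehicle (SD, n = 3). The mutant finasteride libraries ran from 0.97 to 1.25 and the mutant vehicle libraries from 1.35 to 1.74, without overlap, while the former overlapped the wild-type vehicle libraries, at 1.10 to 1.35. For H2-Aa alone the difference was 2.70 ± 0.14 in the mutant on finasteride (SD, n = 5), 2.90 ± 0.11 in the mutant on vehicle and 2.63 ± 0.14 in wild type on vehicle (SD, n = 3 each). For Ciita it was -1.64 ± 0.13, -0.67 ± 0.37 and -1.45 ± 0.25 in the same groups. With Cd52 kept in the list, the mean of the members minus that of the 6 genes was 0.09 ± 0.10 in the mutant on finasteride and 0.30 ± 0.17 in the mutant on vehicle (SD, n = 5 and n = 3). These groups then overlapped, at -0.01 to 0.24 and 0.13 to 0.47, so the lack of overlap depends on leaving out Cd52. The direction depends on it for H2-Aa and H2-Eb1. With Cd52 kept, H2-Aa stood at 1.69 ± 0.13 in the mutant on finasteride and 1.65 ± 0.08 in the mutant on vehicle. H2-Eb1 stood at 1.53 ± 0.08 and 1.52 ± 0.11 in the same groups (SD).

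**Figure D4:**
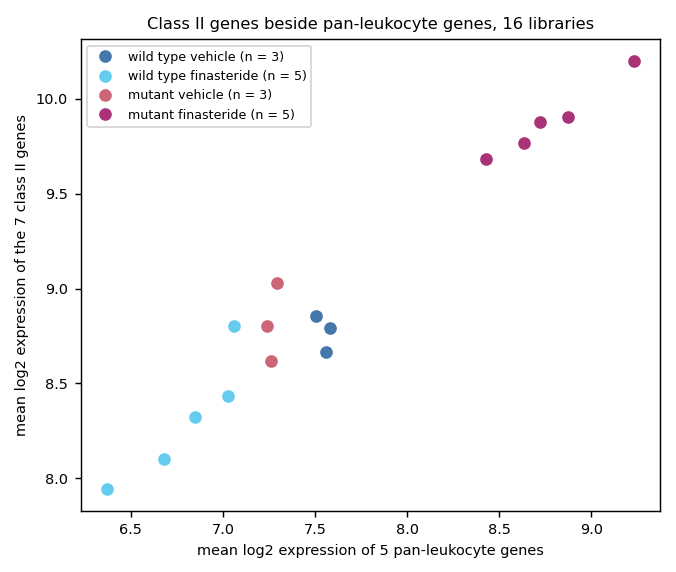
Mean log2 expression of the 7 class II genes (vertical axis) against that of the 5 pan-leukocyte genes without Cd52 (horizontal axis) in the 16 libraries, by group; points are libraries and neither axis starts at 0. The 5 mutant finasteride libraries lie apart at high values of both measures, the 5 wild-type finasteride libraries have the lowest leukocyte values, and 4 of them the lowest class II values.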

How the data were processed

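Prostate RNA was poly-A selected, made into TruSeq libraries and sequenced on a HiSeq2000, per the labels' protocols. The authors deposited 1 table of normalized log2 expression for all libraries; the base was inferred from the values. The submitters' processing notes name build mm9 and the tools DESeq2, DESeq, Cufflinks, TopHat and CASAVA 1.8.2; which made the table, and how it was normalized, is not given in the sources used here. A scale shrunken at low values would understate changes of low genes. No counts or depths are given, so no counting intervals are.

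Groups came from the labels; running numbers in the titles pair nothing. The 16895 genes with a linear mean of at least 10 were tested by limma 3.58.1 in R 4.3.3 (variance trend, 4 group means, 5 contrasts), adjusted by Benjamini and Hochberg at a threshold of 0.05. The model was checked on simulated data with independent noise in each library. That check does not cover libraries close to mixtures of others. The filter used the mean over all libraries, so a gene of low expression could pass it through a single high group. Errors beside differences are moderated standard errors. Libraries were compared with mixtures over genes at a log2 value of 8 or more. Promoters are RefSeq sequences of GRCm38.p6, and exon lengths come from GENCODE's annotation of GRCm38; no coordinates were carried over from the table's build.

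The members and lists were chosen with earlier results of these data known. Named genes were the members, up to 4 genes with the lowest p of each list and comparison, the most abundant gene of cell type lists, and genes of nearest profile; low paralogs, Ifng and Pax5 were added after their values were seen. March1, March8 and H2-Ea were not analysed here. Levels of some genes, the mutated gene among them, are not reported here.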

Additional observations from a re-analysis of the deposited data

Results flagged for a closer look

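All 7 members responded differently to finasteride in the 2 genotypes by the interaction test of the limma fit, which is why they are listed here. The differences between the responses, mutant minus wild type in log2 expression, were 1.73 for H2-Aa, 1.47 for H2-Ab1, 1.65 for H2-Eb1, 1.57 for Cd74, 1.38 for H2-DMa, 2.15 for H2-DMb1 and 0.69 for Ciita.

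In H2-Ab1, mutant finasteride 2 stood apart from the other 4 libraries of its group: its gap to the nearest of them was 0.715 of the group's range, just above the critical value of 0.71 for 5 libraries. This was the only value of the kind among 14 groups examined, where chance gives about 1 in 20. Without that library the finasteride effect on H2-Ab1 in the mutant stayed past the threshold.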

How the results depend on the processing

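Across 26 alternatives (filters, pseudocounts, scalings, variance models, the groups in the fit, each library left out in turn, and the 11 libraries), the finasteride effect in the mutant ranged from 1.18 to 1.46 for H2-Aa, 1.05 to 1.36 for Cd74 and 0.57 to 0.94 for H2-DMa, all past the threshold. The interaction for Ciita reversed to -0.15 under quantile normalization. On vehicle, the count of members higher in the mutant went from 0 to 1 (Ciita) under quantile normalization and under equal medians, and ran from 0 to 1 with single libraries left out; the count lower went from 0 to 1 (H2-DMb1) with only the groups compared in the fit. In wild type, the count lower on finasteride went from 2 to 0 over the 11 libraries and ran from 1 to 6 with single libraries left out. The causes were not tested; the fit on 11 libraries holds fewer samples. No paired analysis was possible because the labels give no shared replicate numbers. Depth is unknown, and the paralogs, Ifng and B cell genes at low expression limit what those values can show.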
